A study of Mus musculus with 21 samples.

Results

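The 52 genes described here are splicing regulators of the mouse brain and transcripts known for keeping introns, out of 21872 gene symbols measured. They were chosen by name and with the drug effect at 7 weeks in view: 11 SR protein genes (Srsf followed by a number), 20 hnRNP genes (symbols beginning with Hnrnp), and 21 genes picked individually, namely the kinases Clk1 to Clk4, Sfpq, Nono, Pspc1, Ttc14, Pnisr, Rsrp1, Tra2a, Tra2b, Luc7l, Luc7l2, Luc7l3, Rbm5, Rbm25, Rbm39, Son, Srrm1 and Srrm2. Values at 7 weeks therefore describe the genes and test nothing about them. RNA-seq libraries came from mice given water (control) or trientine (TETA), a copper-chelating drug whose group the labels call copper-deficient. Groups held 6 control and 6 TETA libraries from embryonic day 18.5 (E18.5), and 5 control and 4 TETA libraries from mice 7 weeks after birth. The protocol speaks of prefrontal cortex of male mice at 7 weeks. Every library is labelled only as brain, so the region and sex at E18.5 are not given, nor are the strain, dose and route, or whether the libraries of a group came from separate litters. The p-values thus measure the spread between libraries.

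Splicing removes introns from a primary transcript and joins its exons. SR proteins bind exons and mostly favour their inclusion, hnRNP proteins often oppose it, and CLK kinases phosphorylate SR proteins in the nucleus and release them from nuclear speckles. Several genes of this machinery regulate themselves: part of their polyadenylated RNA keeps an intron and waits in the nucleus, or takes in an exon that directs it to nonsense-mediated decay. Neurons rely on this layer of control heavily, and long neuronal genes depend on Sfpq. Poly(A) libraries such as these capture spliced and intron-keeping RNA of a gene alike, and a count per gene does not separate the forms.

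GENCODE M21, on build GRCm38, annotates at least 1 retained-intron transcript for 41 of the 52 genes (78.8%), against 57.0% of the genes tested at 7 weeks that matched the annotation. The number ran from 0 for genes such as Sfpq, Pnisr, Srsf10 and Hnrnph1 to 13 for Rbm5 and Hnrnpk. Sfpq, Pnisr, Srsf10 and Hnrnph1 have 5, 9, 6 and 15 transcripts of another annotated class, processed transcripts. Whether those keep introns was not examined. Clk1 on chromosome 1 and Clk4 on chromosome 11 each have 7 retained-intron transcripts. In both genes annotated transcripts keep introns 3 and 4 (numbered in a principal coding transcript), on either side of the exon whose skipping yields a kinase without its catalytic domain. The ends of these introns are shown because they are what a retained Clk transcript keeps. Clk1 intron 3 spans 871 bases (chr1:58420212-58421082, minus strand) and intron 4 spans 387 bases (chr1:58419734-58420120). Clk4 intron 3 spans 1055 bases (chr11:51272023-51273077, plus strand) and intron 4 spans 391 bases (chr11:51273169-51273559). Capitals mark the first 6 and the last 3 bases of each intron, where the splice sites lie.
Clk1 intron 3, first 60 bases: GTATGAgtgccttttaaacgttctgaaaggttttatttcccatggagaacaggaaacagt
Clk4 intron 3, first 60 bases: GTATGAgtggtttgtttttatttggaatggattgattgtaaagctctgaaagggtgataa
Clk1 intron 3, last 60 bases: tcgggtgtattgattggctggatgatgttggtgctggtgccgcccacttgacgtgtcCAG
Clk4 intron 3, last 60 bases: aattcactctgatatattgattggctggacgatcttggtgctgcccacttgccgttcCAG
Clk1 intron 4, first 60 bases: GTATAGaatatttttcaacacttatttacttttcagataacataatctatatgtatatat
Clk4 intron 4, first 60 bases: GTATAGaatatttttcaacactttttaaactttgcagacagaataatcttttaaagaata
Clk1 intron 4, last 60 bases: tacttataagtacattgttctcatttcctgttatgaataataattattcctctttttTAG
Clk4 intron 4, last 60 bases: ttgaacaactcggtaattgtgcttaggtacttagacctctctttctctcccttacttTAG
The introns of the paralogs begin alike: intron 3 shares its first 9 bases and intron 4 its first 23. Intron 3 of both genes also holds an identical run of 49 bases, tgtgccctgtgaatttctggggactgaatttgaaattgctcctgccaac. Over all 52 genes, 48 introns between coding exons, in 24 genes, lay inside an exon of a retained-intron transcript, with lengths from 78 to 3527 bases. All 48 began with GT and ended with AG.

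Rbm5 and Hnrnpk both have 13 retained-intron transcripts, and their short retained introns are shown because Rbm5 was called higher at 7 weeks and Hnrnpk was not called. Rbm5 intron 13 lies at chr9:107751792-107751875 (minus strand, 84 bases), Hnrnpk intron 13 at chr13:58393775-58393852 (minus strand, 78 bases), and Clk1 intron 6 at chr1:58417180-58417266 (minus strand, 87 bases). The sequences and coordinates come from the GENCODE M21 transcripts and annotation, and the introns were picked after the values of the genes had been seen.
Rbm5 intron 13: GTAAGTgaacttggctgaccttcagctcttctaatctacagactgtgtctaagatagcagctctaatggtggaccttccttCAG
Hnrnpk intron 13: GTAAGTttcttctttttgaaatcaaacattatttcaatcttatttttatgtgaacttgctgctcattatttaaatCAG
Clk1 intron 6: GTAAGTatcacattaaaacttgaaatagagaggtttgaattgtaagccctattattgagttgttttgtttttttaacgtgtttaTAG
Sequence and count were not joined further, since the deposited counts hold no reads per intron.

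The E18.5 libraries held 14678265 to 24308555 counts and the 7-week libraries 17838051 to 24035857, and each of the 52 genes had at least 360 counts in every 7-week library and 519 in every E18.5 library. In the E18.5 table, 1940 rows were at 0 in control replicate 1-1 and were whole multiples of 11 elsewhere, so they were divided by 11, and none of the 52 genes was among them. At 7 weeks all 13 striatum markers were lower with TETA, with a log2 fold change of -2.34 for Drd2, and their summed level was 1092 to 1345 CPM in controls and 466 to 627 CPM with TETA. CPM are counts scaled to a common library size, with TMM factors. Cortical excitatory markers summed to 5873 to 6765 CPM in controls and 6023 to 6542 CPM with TETA, and 1 of their 6 genes was lower. Inhibitory neuron markers summed to 607 to 646 CPM in controls and 551 to 579 CPM with TETA, without overlap, and 2 of the 3 were lower (log2 fold change of Slc32a1 -0.31 and of Gad2 -0.16). Among progenitor markers 2 of 5 were lower (Hes5 -0.44 and Sox2 -0.21), and among astrocyte markers 1 of 4 (Aldh1l1 -0.21). Choroid plexus markers reached 57.3 CPM in control 4 and stayed between 1.78 and 4.18 CPM in the other libraries, and 1 of the 3 tested, Clic6, was lower (-1.60, without overlap). Apart from striatum, which is taken up with the results at 7 weeks, the part of these cell types in the results on the 52 genes was not tested. In bulk tissue, fewer cells of a type and less RNA per cell cannot be told apart.

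Libraries differed within groups in the level of the 52 genes. For each library the median over the genes of log2 CPM, minus the gene's mean at that age, was taken. Control 2 had the lowest median at 7 weeks, -0.12, and was the lowest control for 31 of 52 genes (59.6%, against 20.6% of all tested genes). TETA 3 had the highest, 0.11, and was the highest TETA library for 24 of the 52 (46.2%, against 25.7% of all genes). At E18.5 the libraries numbered 1-2 had the highest medians of both groups, 0.07 in control and 0.08 in TETA. The TETA 1-2 library was the highest of its group for 35 of the 52 genes (67.3%, against 23.8% of all genes), and control 1-2 for 23 of them (44.2%, against 25.3%).

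Many of the genes had more RNA with TETA at 7 weeks, by up to 34.9%, and none passed the threshold for less. In edgeR's quasi-likelihood test over 14240 genes, with Benjamini-Hochberg adjustment at 0.05, 22 of the 52 were called higher (42.3%) and 0 lower, where 5.67% of all genes were called higher and 4.28% lower. At an unadjusted p under 0.05, 32 were higher (12.9% of all genes were) and 1, Hnrnpdl, was lower (11.1% of all genes; named after its values were seen), and DESeq2 and limma voom also called 0 lower. The log2 fold change was above 0 in 40 of the 52, against 50.1% of all genes, and its median was 0.12, against 0.00 over all genes. All TETA libraries lay above all controls for 25 of the genes (6.26% of all genes did so) and below them for 1, Hnrnpk (4.91% of all genes). Without TMM factors 25 of the 52 were called higher, and 67.6% of all calls were higher, against 57.0% with them. These shares belong to the contrast on which the genes were chosen and carry no test.

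**Figure D1:**
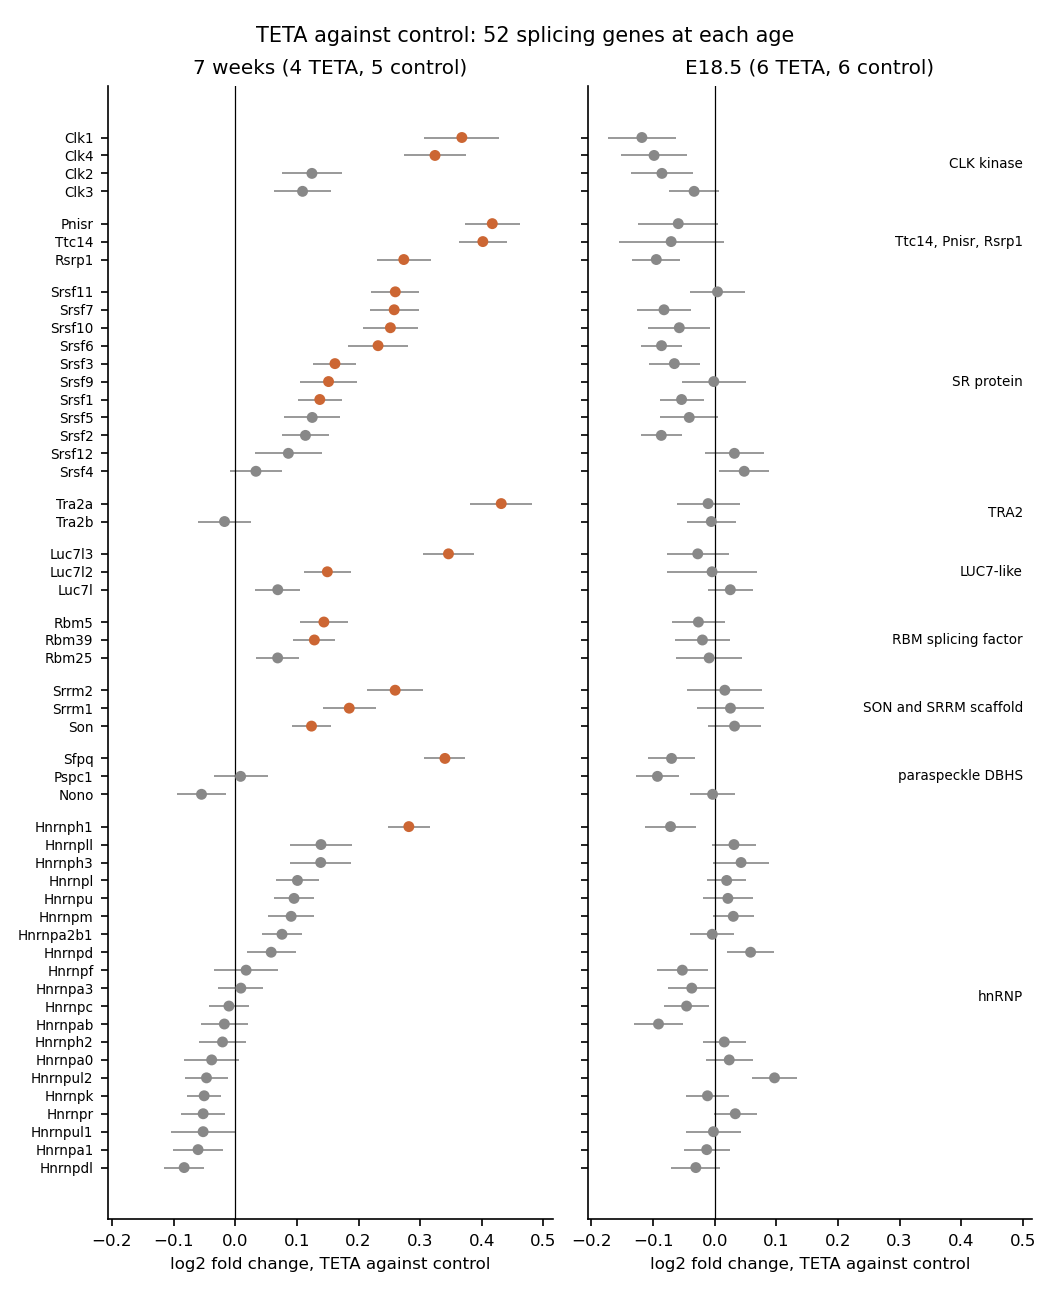
Log2 fold change of TETA against control (x axis) for each of the 52 genes (y axis, grouped by role) at 7 weeks (left) and E18.5 (right); points are edgeR estimates, bars are 1 SE, and orange marks genes past the adjusted threshold. At 7 weeks the 22 orange genes all lie above 0 and only 1 of them is an hnRNP gene, whereas at E18.5 every gene lies between -0.12 and 0.10 and none is past the threshold.

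Of the 4 CLK kinases, which phosphorylate SR proteins, Clk1 and Clk4 were called higher with TETA. Clk1 stood at 73.5, 60.2, 63.8, 67.2 and 77.0 CPM in controls 1 to 5 and at 96.1, 90.5, 83.0 and 83.4 CPM in TETA libraries 1 to 4. The groups did not overlap, and the log2 fold change was 0.37 (SE 0.06), a level 29.0% higher. Its paralog Clk4 stood at 46.9, 43.7, 42.5, 40.3 and 47.4 CPM in controls and at 54.6, 56.0, 58.3 and 52.5 CPM with TETA, again without overlap, with a log2 fold change of 0.32 (SE 0.05). Clk2 and Clk3, of the same family, were not past the threshold: the log2 fold change was 0.12 (SE 0.05) for Clk2, whose groups did not overlap, and 0.11 (SE 0.05) for Clk3, whose groups did.

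Ttc14, whose RNA is known for keeping introns, and Pnisr and Rsrp1, which encode arginine- and serine-rich nuclear proteins, were all called higher. Ttc14 ranged from 91.4 to 101 CPM over the 5 controls and from 121 to 130 CPM over the 4 TETA libraries. The groups were well separated, and the log2 fold change of 0.40 (SE 0.04) meant a level 32.1% higher. Pnisr stood at 144, 126, 136, 142 and 151 CPM in controls and at 185, 183, 199 and 179 CPM with TETA, a log2 fold change of 0.42 (SE 0.04). Rsrp1 rose from 242 ± 17.2 CPM (SD, n = 5) to 293 ± 13.7 CPM (SD, n = 4), and its lowest TETA library, at 274 CPM, lay just above control 5, at 272 CPM.

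The 11 SR protein genes were chosen by symbol, and SR proteins mostly, not always, favour the exons they bind. Of these genes 7 were called higher and 4 did not pass, where 5.67% of all genes were called higher. All 11 had a log2 fold change above 0, as 50.1% of all genes did. The 7 called were Srsf11 at 0.26, Srsf7 at 0.26, Srsf10 at 0.25, Srsf6 at 0.23, Srsf3 at 0.16, Srsf9 at 0.15 and Srsf1 at 0.14 (SE 0.03 to 0.05). Srsf11, for example, stood at 106, 105, 104, 109 and 115 CPM in controls and at 129, 123, 135 and 130 CPM with TETA. Every TETA library was above every control for each of the 7. With each of the 9 libraries left out in turn, however, Srsf9 passed in only 2 fits (without control 4 or TETA 2), and Srsf1 failed without control 2, control 4 or TETA 3. The 4 not called were Srsf5 (0.12), Srsf2 (0.11), Srsf12 (0.09) and Srsf4 (0.03), named after their values were seen. Of these Srsf2 lay higher without overlap and was past the threshold where TMM factors were left out, and the groups of the other 3 overlapped.

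Tra2a and Tra2b, SR-like activators that bind purine-rich exons, differed in their calls at 7 weeks. Tra2a had the largest log2 fold change of the 52 genes, 0.43 (SE 0.05), a level 34.9% higher. It stood at 73.9, 62.9, 63.4, 62.3 and 71.1 CPM in controls and at 92.6, 84.1, 91.5 and 91.8 CPM with TETA, so that even its lowest TETA library was above all controls. Tra2b stood at 63.8 ± 3.64 CPM (SD, n = 5) in controls and 63.0 ± 1.08 CPM (SD, n = 4) with TETA, with overlapping groups and a log2 fold change of -0.02 (SE 0.04). The difference between these paralogs was not tested.

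LUC7-like proteins belong to the U1 particle that reads the start of an intron. Luc7l3 stood at 116, 110, 114, 106 and 125 CPM in controls and at 147, 144, 151 and 139 CPM with TETA, and its log2 fold change was 0.35 (SE 0.04). Luc7l2 was called at 0.15 (SE 0.04) although its groups overlapped, and Luc7l was not, at 0.07 (SE 0.04). The splicing factors Rbm5, at 0.14 (SE 0.04), and Rbm39, at 0.13 (SE 0.03), were called, and Rbm25 was not, at 0.07 (SE 0.03). Without TETA 3, Luc7l2, Rbm5 and Rbm39 were no longer past the threshold. The same held without control 2 for Rbm5 and Rbm39, without control 3 for Rbm5 and without TETA 2 for Rbm39.

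The scaffold proteins of nuclear speckles, where splicing factors are stored, were all called higher. Srrm2 stood at 431 ± 27.5 CPM (SD, n = 5) in controls and 515 ± 36.6 CPM (SD, n = 4) with TETA, a log2 fold change of 0.26 (SE 0.05). Srrm1 followed at 0.18 (SE 0.04) and Son at 0.12 (SE 0.03), the latter not past the threshold without TETA 3. TETA 3 held the highest level of both Srrm2, 568 CPM, and Son, 374 CPM.

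Sfpq, Nono and Pspc1 encode DBHS proteins, which pair with each other and build paraspeckles. Of the 3 only Sfpq was called, at 134, 127, 132, 137 and 137 CPM in controls and 166, 167, 173 and 169 CPM with TETA. The groups were well apart, with a log2 fold change of 0.34 (SE 0.03) and a level 26.6% higher. Nono, at 125, 112, 122, 117 and 116 CPM in controls and 106, 119, 116 and 115 CPM with TETA, overlapped between groups and had a log2 fold change of -0.05 (SE 0.04). Pspc1 overlapped as well, at 46.9 ± 1.11 CPM (SD, n = 5) and 47.2 ± 2.63 CPM (SD, n = 4), with a log2 fold change of 0.01 (SE 0.04).

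hnRNP genes, whose products coat new transcripts and often repress exons, had 1 of 20 called higher (against 5.67% of all genes) and 0 lower. At an unadjusted p under 0.05, 7 were higher and 1 lower, against 12.9% and 11.1% of all genes. Of the 20, 10 had a log2 fold change above 0 and 10 below, with a median of 0.00 and a range of -0.08 to 0.28. Hnrnph1 was the 1 that was called, at 175, 158, 165, 165 and 169 CPM in controls and 201, 197, 205 and 206 CPM with TETA, a log2 fold change of 0.28 (SE 0.03). Hnrnpk, named after its values were seen, stood at 366 ± 8.71 CPM (SD, n = 5) in controls and 353 ± 1.61 CPM (SD, n = 4) with TETA, and its log2 fold change of -0.05 (SE 0.03) was not past the threshold although its groups did not overlap. Hnrnpl (0.10, SE 0.04) and Hnrnpu (0.10, SE 0.03), also named after their values were seen, lay higher without overlap and were past the threshold where TMM factors were left out. Reads of hnRNP and SR genes that have processed pseudogenes may have been assigned to either copy, as the handling of shared reads is not given.

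**Figure D2:**
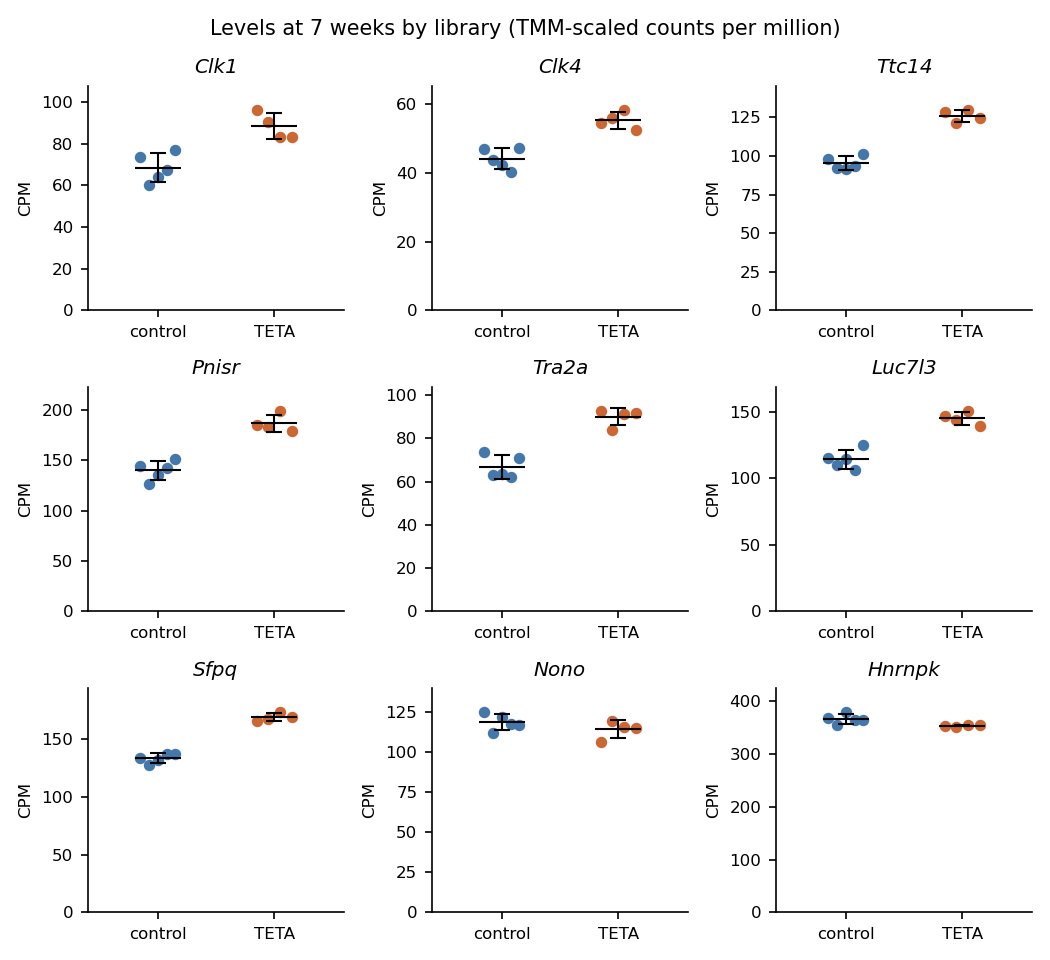
CPM (TMM-scaled counts, y axis from 0) of 9 genes in each 7-week library, by group (x axis); points are libraries, and bars are mean and SD over 5 control and 4 TETA libraries. The groups are apart for Clk1, Clk4, Ttc14, Pnisr, Tra2a, Luc7l3 and Sfpq, overlap for Nono, and for Hnrnpk lie slightly apart with TETA below control.

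The lower level of striatum markers moved with the difference between groups. The median over the 52 genes was -0.12 to -0.01 in the controls and 0.04 to 0.11 in the TETA libraries, without overlap. TETA 3, with the lowest striatum sum, 466 CPM, had the highest median. Among controls the order was not the same: control 5, with the lowest striatum sum, 1092 CPM, had a median of -0.02, and control 2, with the next lowest, 1158 CPM, had the lowest median. With the striatum score as a covariate, 0 of the 52 genes and 1 gene in all passed the threshold, and 3 of the 52, Clk1, Sfpq and, named after its values were seen, Hnrnpll, were at an unadjusted p under 0.05, a share near the 4.84% of all genes. In that fit the log2 fold change was 0.61 (SE 0.21) for Clk1, 0.25 (SE 0.12) for Sfpq, 0.36 for Tra2a and 0.27 for Ttc14. Of the 40 genes above 0 without the score, 12 were below 0 with it, among them the called genes Son, Srrm2 and Srsf6 and, not called before, Clk3 (-0.19), Rbm25 (-0.10) and Clk2 (-0.10). The SE of Son, Srrm2, Srsf6, Clk3, Rbm25 and Clk2 was 0.11 to 0.17 with the score and 0.03 to 0.05 without it. Of the 12 genes below 0 without the score, 8 were above 0 with it. The score separates the groups completely, so the drug and the striatum content of the samples cannot be told apart.

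**Figure D3:**
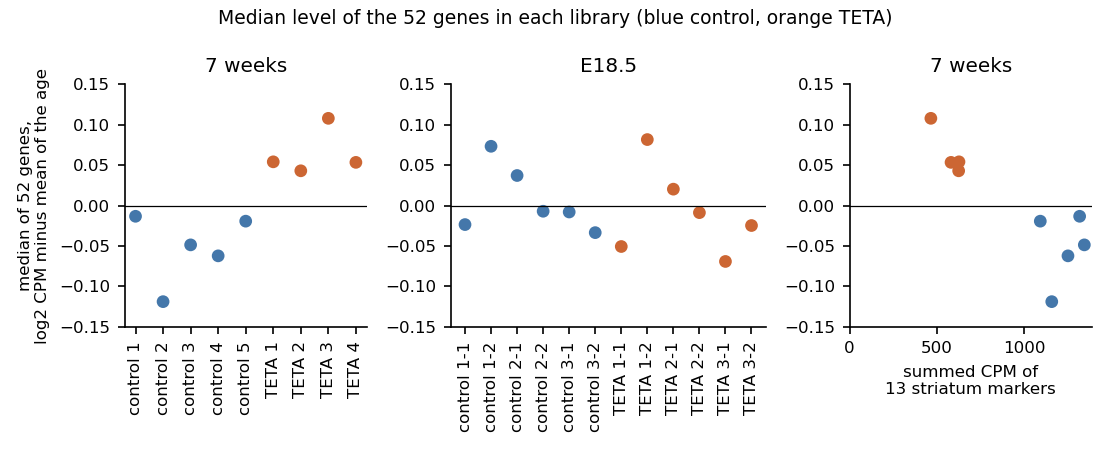
Median over the 52 genes of log2 CPM minus each gene's mean at that age (y axis) in each 7-week library (left) and E18.5 library (middle), and at 7 weeks against the summed CPM of 13 striatum markers (right); blue is control and orange TETA. The 4 TETA libraries lie above the 5 controls at 7 weeks and have lower striatum sums, whereas at E18.5 the groups overlap and the libraries numbered 1-2 are the highest of both.

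Other lists of the splicing machinery were read from the same 7-week fit, in which 5.67% of all genes were called higher and 4.28% lower. These lists too were drawn up with earlier results of these data known. Of 38 genes of the spliceosome core, 3 were higher, Rnpc3 of the minor spliceosome (0.48), its partner Snrnp48 (0.36) and Snrnp70 of the U1 particle (0.24), and 1 was lower, Snrnp200 (-0.14). Among 33 neural and tissue regulators tested, 4 were higher and 0 lower by edgeR (log2 fold change of Tia1 0.35, Srrm3 0.24 and Tial1 0.15). Of 12 kinases and phosphatases of SR proteins, Prpf4b was higher (0.19) and Ppp1r10 lower (-0.15), and of 18 genes of nonsense-mediated decay and the exon junction, Acin1 (0.26), Smg1 (0.22) and Pnn (0.23) were higher. The list median was -0.01 for the core, 0.03 for the neural regulators, 0.00 for the kinases and 0.05 for the decay genes.

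A list of 16 other transcripts known for retained introns or for staying in the nucleus was higher for most of those tested. Of its 12 tested genes 9 were higher and 0 lower by edgeR, against 5.67% and 4.28% of all genes, with a list median of 0.23. Snhg11, a noncoding RNA of neurons, rose from 886 ± 83.1 CPM (SD, n = 5) to 1365 ± 130 CPM (SD, n = 4), a log2 fold change of 0.62 (SE 0.06). Nktr followed at 0.41 (SE 0.05) and the cyclin gene Ccnl2 at 0.33 (SE 0.05). Ankrd11, Ddx5 and Oga were not past the threshold. At E18.5 the list's median was -0.02, and edgeR called 0 of its genes.

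Genes beyond the 52 were then grouped by how many retained-intron transcripts GENCODE annotates for them, a description chosen after the calls were seen. Among the 6044 other genes with none, 4.42% were higher at 7 weeks and 4.72% lower. The 3138 genes with 1 such transcript had 4.37% higher and 4.62% lower. The share of higher genes was 6.04% at 2 transcripts, 8.01% at 3 to 5, 11.5% at 6 to 9 and 20.4% among the 49 genes with 10 or more, where 2.04% were lower. In the same libraries the median of those 49 genes was lowest in control 2, at -0.07, and highest in TETA 3, at 0.08. The extremes were the same as for the 52 genes, but here the groups overlapped. Control 5, at 0.0055, lay above TETA 4, at 0.0027. At E18.5 the median of the genes with 10 or more reached 0.09 in TETA 1-2. Among the 52 themselves, 5 of 11 genes with none were higher, 2 of 8 with 1, 4 of 10 with 2, 5 of 14 with 3 to 5, 4 of 6 with 6 to 9 and 2 of 3 with 10 or more.

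**Figure D4:**
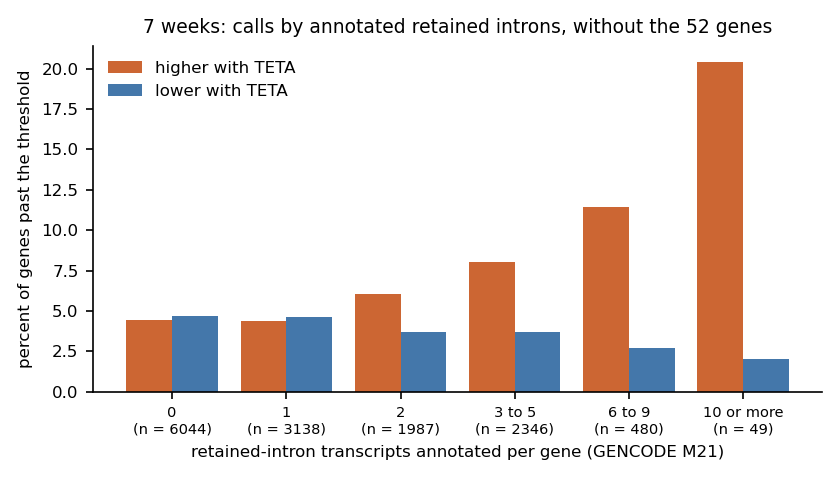
Percent of genes past the adjusted threshold at 7 weeks (y axis) by number of retained-intron transcripts in GENCODE M21 (x axis, with the number of genes), without the 52 genes; orange is higher and blue lower with TETA. The share of higher genes goes from 4.42% at 0 to 20.4% at 10 or more, and the share of lower genes from 4.72% to 2.04%.

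The choice of the genes rested on the 7-week contrast, so their E18.5 values were tested, and none passed the adjusted threshold. edgeR called 0 of the 52 and 0 of 13794 genes (0.00%). At an unadjusted p under 0.05 there were 7 of the 52 (1 higher and 6 lower), against 4.78% of all genes, while DESeq2 and limma voom called 0 of the 52. Log2 fold changes ran from -0.12 to 0.10 with a median of -0.01, and the median SE was 0.04. They were below 0 for 35 of the 52 genes, against 51.8% of all genes. That balance shifted with single libraries. With all libraries 17 genes were above 0, against 25 without control 1-2, 27 without TETA 3-1 and 14 without TETA 1-2. Leaving out any other library gave 16 to 22, and leaving out both libraries numbered 1-2 gave 17.

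Of the kinases at E18.5, Clk1 ranged from 107 to 133 CPM (median 117) in controls and from 96.0 to 120 CPM (median 110) with TETA. The groups overlapped, and the log2 fold change was -0.12 (SE 0.06, adjusted p = 0.996, edgeR). Clk4 ranged from 63.0 to 75.8 CPM (median 66.9) and from 55.8 to 69.6 CPM (median 64.0), with a log2 fold change of -0.10 (SE 0.05, adjusted p = 0.996). For Ttc14 the values were 95.7 to 158 CPM (median 109) in controls and 104 to 124 CPM (median 106) with TETA. In both groups the top value belonged to the library numbered 1-2, and the log2 fold change of -0.07 (SE 0.09) became 0.04 without control 1-2 and -0.01 without both libraries of that number.

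Sfpq ranged from 504 to 548 CPM (median 531) in E18.5 controls and from 479 to 552 CPM (median 497) with TETA, and its log2 fold change was -0.07 (SE 0.04, adjusted p = 0.996, edgeR). Nono had a log2 fold change of -0.0034 (SE 0.04), with overlapping groups. Pspc1 had the smallest unadjusted p of the 52 genes, 0.0136, with 100 to 109 CPM (median 107) in controls and 95.8 to 104 CPM (median 99.7) with TETA. Its log2 fold change was -0.09 (SE 0.03) and its adjusted p 0.893.

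Next in order of p at E18.5 came Hnrnpul2, Srsf2, Srsf6 and Rsrp1, which encode an RNA-binding protein related to hnRNP U, a pair of SR proteins and an arginine- and serine-rich protein. Hnrnpul2 was the 1 with a value above 0, a log2 fold change of 0.10 (SE 0.04, adjusted p = 0.893). Srsf2 was at -0.09 (SE 0.03, adjusted p = 0.922) and Rsrp1 at -0.09 (SE 0.04, adjusted p = 0.971). Srsf6 ranged from 229 to 237 CPM (median 234) in controls and from 206 to 228 CPM (median 221) with TETA. It was the 1 gene of the 52 whose E18.5 groups did not overlap (0.181% of all genes lay lower without overlap), at a log2 fold change of -0.09 (SE 0.03, adjusted p = 0.922). Whether the drug effect differed between the ages was not tested, because the 7-week contrast chose the genes.

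Between the ages, most of the genes had far less RNA in the adult. In a fit of the control libraries alone, 5 at 7 weeks against 6 at E18.5, 47 of the 52 genes were lower at 7 weeks and 2 higher, where 45.5% of all 14375 genes were lower and 44.0% higher. The median log2 fold change was -0.88 for the 52 and -0.02 for all genes. The 7-week controls are the same libraries as in the drug comparison. Age cannot be told apart from the change in cell types, and oligodendrocyte markers alone had a median log2 fold change of 8.86. Nor can age be told apart from any difference in brain region or sequencing run, and the labels used here name no run.

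**Figure D5:**
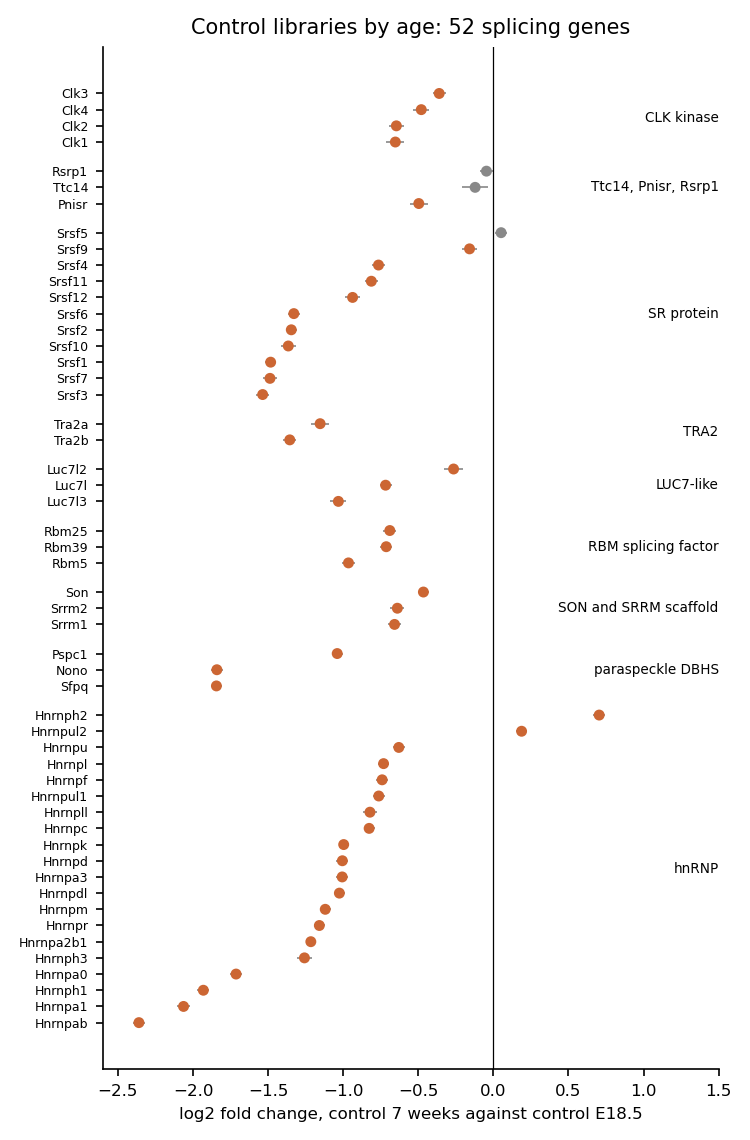
Log2 fold change of control libraries at 7 weeks against control libraries at E18.5 (x axis) for each of the 52 genes (y axis, grouped by role); points are edgeR estimates, bars are 1 SE, and orange marks genes past the adjusted threshold. All but 5 genes are lower at 7 weeks and past the threshold, with Hnrnpab lowest at -2.36, and Hnrnph2 stands highest at 0.70.

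The 6 largest falls included 4 hnRNP genes. Hnrnpab went from 613 ± 12.7 CPM (SD, n = 6) to 119 ± 5.58 CPM (SD, n = 5), a log2 fold change of -2.36 (SE 0.04, adjusted p = 5.68e-25, edgeR). Hnrnpa1 followed at -2.06 and Hnrnph1 at -1.93, then Sfpq at -1.84, Nono at -1.84 and Hnrnpa0 at -1.71. Sfpq and its partner Nono were both lower at 7 weeks, from 505 ± 15.5 to 141 ± 4.38 CPM for Sfpq and from 447 ± 15.0 to 125 ± 5.19 CPM for Nono (SD, n = 6 and 5).

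Hnrnph2 and Hnrnpul2 were the 2 genes that rose, by a log2 fold change of 0.70 (SE 0.04, adjusted p = 4.27e-14, edgeR) and 0.19 (SE 0.04, adjusted p = 5.13e-05). Hnrnph2 therefore moved against its close paralog Hnrnph1. Without TMM scaling the median of all genes shifted to -0.17, Hnrnpul2 was no longer past the threshold, and 50 genes were lower. Srsf5, Rsrp1 and Ttc14, named after their values were seen, were the 3 genes not past the threshold, at 0.05, -0.05 and -0.12. Among role groups the DBHS genes had the lowest median log2 fold change, -1.84, and SR proteins stood at -1.33, hnRNP genes at -1.01 and CLK kinases at -0.56. Of the spliceosome core, 35 of 38 genes were lower at 7 weeks as well, with a list median of -0.58.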

How the data were processed

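The authors deposited whole-number read counts per gene symbol in 1 table for each age, with libraries as columns, per the file headers. The submitters' processing notes name STAR 2.7.1a, featureCounts 2.0.1 and build mm10, and the labels' protocols a stranded poly(A) kit. Counting strand, annotation and multi-mapping are not given in the sources used here. E18.5 rows at 0 in control replicate 1-1 were divided by 11 (1940 rows), and the fit as deposited was an alternative. Genes passed filterByExpr (minimum count 10), were TMM scaled and tested with edgeR 4.0.16 (quasi-likelihood, Benjamini-Hochberg at 0.05) in R 4.3.3, with DESeq2 1.42.0 and limma 3.58.1 (voom with quality weights) as alternatives. An SE is the log2 fold change over the square root of F, and levels are mean ± SD. The striatum score is the mean over its markers of log2 CPM (prior count 2), each centred on its mean at that age. The test was checked on simulated counts. No replicate libraries agreed within counting noise (46 pairs, lowest chi-square 2.30 per gene).

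Genes named were all those past the threshold and the 21 picked individually at 7 weeks, the 5 smallest p plus Sfpq, Nono, Pspc1, Ttc14, Clk1 and Clk4 at E18.5, the 6 largest rises and falls with age, and up to 3 per direction in other lists. The genes and lists were chosen with earlier results of these data known. Malat1, Neat1, Meg3 and Miat are not analysed here.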

Additional observations from a re-analysis of the deposited data

Results flagged for a closer look

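For Srsf6 every TETA library was above every control at 7 weeks (log2 fold change 0.23), in the contrast that chose the genes. At E18.5 every TETA library was below every control (-0.09), and that value did not pass (adjusted p = 0.922, edgeR). The gap of 0.32 on the log2 scale was smaller than those of genes whose E18.5 groups overlapped, such as Clk1 (0.37 and -0.12) and Pnisr (0.42 and -0.06). The difference between ages was not tested.

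In 9 of 82 groups of library values examined, 1 library stood apart from the rest of its group by Dixon's criterion (gap to the nearest library over the whole range), which chance meets in about 1 in 20 groups, or 4.1 here. TETA 3 was high at 7 weeks for Son (ratio 0.949), for Rbm25 (0.863) and, only just, for the median of the 52 genes (0.8291). Control 5 was high for Rsrp1 (0.729) and Srsf7 (0.787), and TETA 2 was low for Tra2a (0.866), at 84.1 CPM against 91.5 to 92.6 CPM. At E18.5 the libraries numbered 1-2 were high for Ttc14 in control (0.636), at 158 CPM against 95.7 to 118 CPM, and in TETA (0.728), at 124 CPM against 104 to 109 CPM. Control 2-2 was low for Pspc1 (0.699).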

How the results depend on the processing

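At 7 weeks, DESeq2, no TMM factors, no filter on counts, a filter at a mean of 50, voom quality weights and a replicate block gave 20 to 25 of the 52 genes higher and 0 lower. Leaving out 1 library gave 927 to 1392 genes and 16 to 25 of the 52, lowest without TETA replicate 3 in both. Srsf9 passed in 2 of these 9 fits, Rbm5, Rbm39 and Srsf1 in 6, and Son and Luc7l2 in 8. The striatum score left 1 gene and 0 of the 52 past the threshold and took 12 of the 40 genes above 0 to below it. Among the called genes these were Son at -0.0195 (SE 0.11), Srrm2 at -0.0399 (SE 0.15) and Srsf6 at -0.0593 (SE 0.16). Each lay within 1 SE of 0, and the cause was not tested.

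At E18.5, 0 of the 52 passed in any of the fits run. The count over all genes was 10 with DESeq2, 8 with voom weights, 2 with libraries of the same first number summed, 7 without both libraries numbered 1-2, and 0 to 7 with 1 library left out (7 without TETA 1-2, 3 without control 3-2). Nono ran from -0.0189 to 0.00883 with 1 library left out and was 0.0013 with libraries summed, and Ttc14 ran from -0.118 to 0.0395. Between ages, 1 of the 52 was higher without TMM factors, against 2. Deviations of same-numbered libraries correlated at -0.07 to -0.03 at 7 weeks and, with mixed signs, at -0.28 to 0.28 at E18.5. The labels do not say what the numbers mean, so whether they pair the libraries is not known. With the replicate block 1063 genes and 20 of the 52 passed at 7 weeks, and 0 genes at E18.5, with 719 at an unadjusted p under 0.05 (675 with the first number as the block). Depth limits the 52 genes little: the lowest count of any of them in any library was 360.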
